A study of Mus musculus with 24 samples.

Results

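Transcripts of 10 Notch pathway genes were measured in the developing cortex of *Cep135*-mutant and control mouse embryos and in neurospheres grown from it. The genes were chosen by symbol, as the receptors *Notch1*, *Notch2* and *Notch3*, the ligands *Dll1*, *Dll3* and *Jag1*, the target genes *Hes1*, *Hes5* and *Hey1*, and the related *Hes6*, and they are 10 of the 54658 genes in the table. All 10 were found and all 10 passed the filter on low values in each comparison. Dorsal telencephalon was taken on the embryonic day labelled E11.5 from 3 *Cep135* (-/-) embryos, called A, B and C here, and 3 *Cep135* (+/+) embryos, D, E and F, and at E14.5 from 3 *Cep135* (-/-) embryos, 1, 2 and 6, and 3 *Cep135* (+/+) embryos, 3, 4 and 5. Cortical neural progenitors of the same 6 E14.5 embryos were also dissociated with papain and cultured in suspension with EGF and FGF2, and gave 1 library per embryo after 12 hours and 1 after 24 hours. The mutation is a germline deletion, carried by each cell of the mutant embryos, which the study names *Cep135*(Δ8/Δ8). Each embryo came from a mating of heterozygous parents, none received a drug, and no animals were pooled. One label of mutant 6's cortex gives E11.5 and its other labels E14.5, so it was taken as E14.5 and results are also given without it. Labels of mutants B and C disagree on their prefix, which was taken as that of controls E and F. By the other spelling, the prefix would separate B and C from E and F.

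Libraries were read from the 3′ ends of transcripts, and the authors deposited read counts divided by 1 size factor per library, called normalized read counts here. The 24 libraries held 4732781 to 11645213 reads on genes. At 24 hours the mutant libraries held 7903426 to 11645213 reads and the control libraries 4732781 to 5709443. In the same libraries, *Gm42418*, an RNA gene with ribosomal sequence, took 20.5% to 23% of the normalized read counts of mutants and 6.26% to 13.9% of controls, so at 24 hours depth and this share cannot be told apart from genotype. Of the 12 embryos, 5 were female (A, C, E, 1 and 2), and the E14.5 controls were all male.

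Notch receptors sit at the cell surface and are activated by Delta and Jagged ligands on neighboring cells. Activation cuts the receptor, and its intracellular part enters the nucleus, joins the DNA-binding protein RBPJ, and turns on genes of the Hes and Hey families, which repress the proneural genes that drive neurons to form. In the embryonic cortex this circuit is known for keeping apical progenitors, also called radial glia, from becoming neurons too early, while the newborn neurons and intermediate progenitors carry the ligands. *Hes6* is a family member that does not repress in the same way and is known to favor neuronal differentiation.

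In GENCODE vM21 on GRCm38, *Hes5* (ENSMUSG00000048001) spans bases 154960923 to 154962371 of chromosome 4 on the plus strand, *Hes1* (ENSMUSG00000022528) bases 30064384 to 30067796 of chromosome 16 on the plus strand, *Hes6* (ENSMUSG00000067071) bases 91411483 to 91414038 of chromosome 1 on the minus strand, and *Notch3* (ENSMUSG00000038146) bases 32120820 to 32166852 of chromosome 17 on the minus strand. Promoters are shown for the pair of Hes genes with the widest and the narrowest range of levels across these samples, *Hes5* and *Hes6*. They are RefSeq entries on GRCm38.p6, from 250 bases before to 50 after the annotated start, and 8 of the 10 genes have an entry in the table used (all but *Hes1* and *Hey1*), with 10 entries in all. Capitals mark TGGGAA, the core of the sequence that RBPJ binds, and GTGGGAA, its extended form, on either strand, and each GTGGGAA also holds a TGGGAA.

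Hes5 (chr4:154960673-154960972, plus strand): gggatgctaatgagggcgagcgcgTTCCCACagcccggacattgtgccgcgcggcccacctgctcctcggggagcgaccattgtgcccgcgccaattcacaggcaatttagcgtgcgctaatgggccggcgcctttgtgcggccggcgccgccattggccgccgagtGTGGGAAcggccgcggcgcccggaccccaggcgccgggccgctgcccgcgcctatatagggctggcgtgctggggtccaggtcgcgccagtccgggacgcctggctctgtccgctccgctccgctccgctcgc
Hes6 (chr1:91413989-91414288, minus strand): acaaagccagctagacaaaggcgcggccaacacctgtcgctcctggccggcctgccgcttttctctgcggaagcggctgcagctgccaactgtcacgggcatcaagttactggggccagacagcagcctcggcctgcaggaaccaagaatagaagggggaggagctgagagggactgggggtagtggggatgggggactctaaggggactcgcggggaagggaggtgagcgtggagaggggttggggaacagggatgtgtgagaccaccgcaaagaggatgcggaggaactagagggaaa

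In *Hes5* the extended form lay on the same strand as the gene from base -83 to -77 before the start, and on the other strand from -226 to -220. The other 9 entries of the members held neither form within their 300 bases. Among all 32851 promoter entries, 25.6% held TGGGAA and 6.38% held GTGGGAA on at least 1 strand. These are matches of letters and not measured binding sites.

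**Figure D1:**
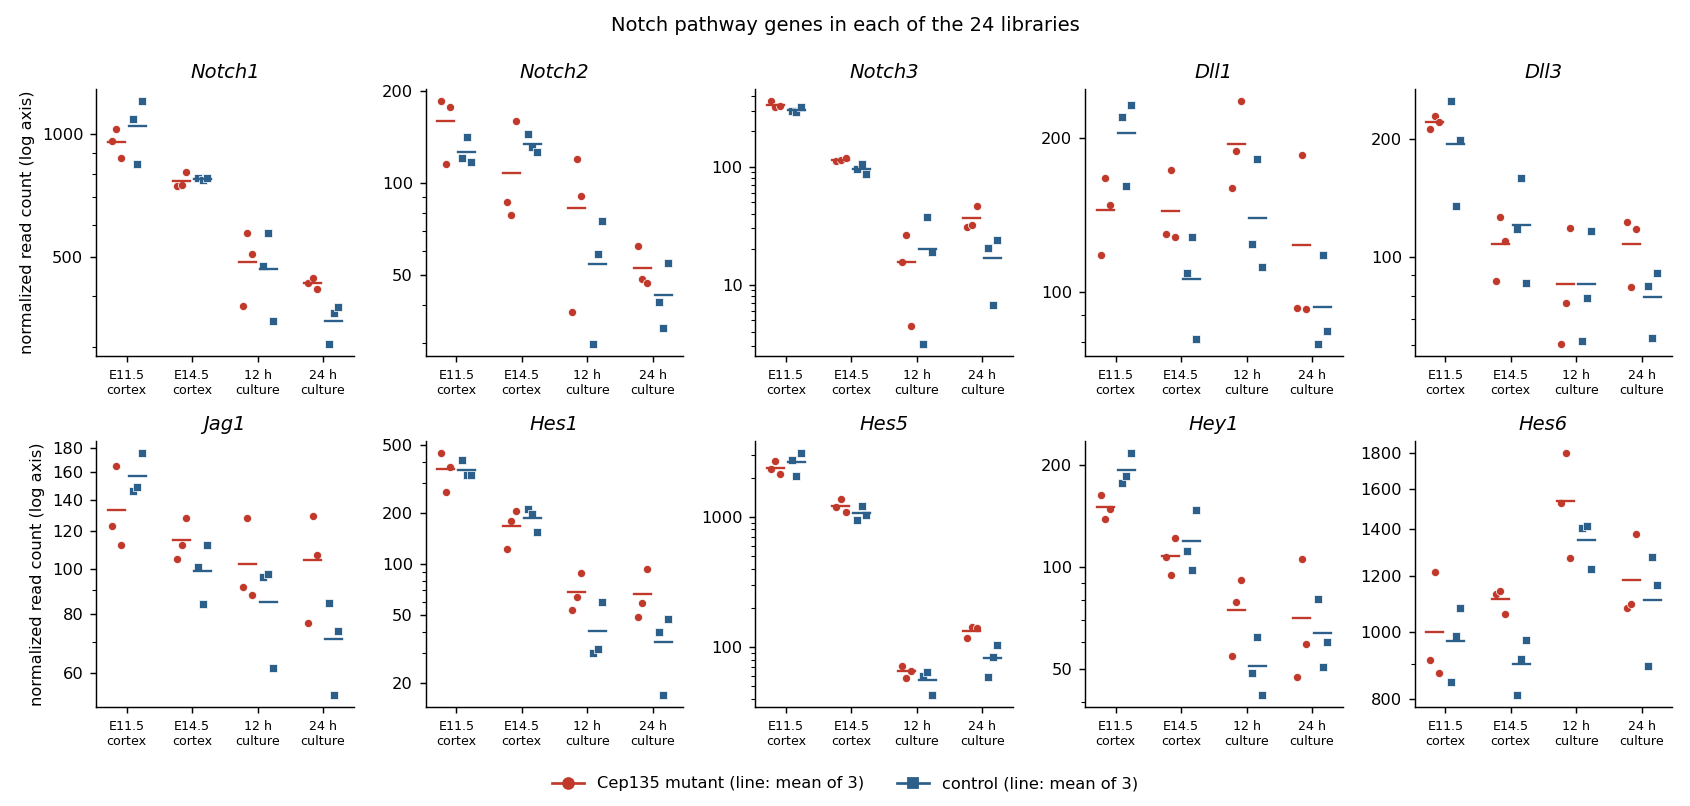
Normalized read count (log axis, a separate scale for each gene) of each Notch pathway gene in the 24 libraries by stage. Circles are *Cep135* mutants, squares are controls, and the line is the mean of 3 libraries. *Hes5* lies between 2052 and 3099 at E11.5 and between 42.5 and 71.2 after 12 hours of culture, while *Hes6* stays between 811 and 1801 throughout.

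From E11.5 to E14.5, 2 of the 3 receptors, all 3 ligands and all 3 targets fell. Of the 10 members 8 were lower at E14.5 and none was higher (limma on log2-transformed counts with 1 added, adjusted p under 0.05, 6 libraries against 6 with genotype as a term), where 29.3% of all genes tested were lower and 23.8% higher. The median log2 fold change of the members was -0.53, beside -0.077 for all genes. For 4 members, *Notch1*, *Notch3*, *Hes1* and *Hes5*, all E14.5 libraries lay below all E11.5 libraries, as did those of 14.9% of all genes, and for 0 members all lay above, beside 15.5%. Without mutant 6's cortex 7 members passed, with *Dll1* lost.

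Among the receptors, *Notch3* changed most. It ranged from 293 to 361 at E11.5 (median 321) and from 87.2 to 119 at E14.5 (median 109), so that the stages did not overlap, with a 3.02-fold fall (log2 fold change -1.60, standard error 0.089, adjusted p = 7.53e-10). *Notch1*, a major receptor of cortical progenitors, ranged from 845 to 1206 at E11.5 (median 998) and from 747 to 807 at E14.5 (median 777). That is a 1.29-fold fall (standard error 0.088 on the log2 scale, adjusted p = 0.00252), with no overlap. *Notch2* ranged from 115 to 185 and then from 78.4 to 159, and did not pass the test (log2 fold change -0.25, standard error 0.19, adjusted p = 0.271).

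The ligands fell less than *Notch3*. *Dll3*, a Delta-like protein that acts inside the cell that makes it, had a median of 216 at E11.5 and 114 at E14.5 (log2 fold change -0.86, standard error 0.17, adjusted p = 0.000465). Its ranges, 135 to 249 and 86.3 to 159, overlapped through control E. *Jag1*, with medians of 147 and 108, fell by 0.43 on the log2 scale (standard error 0.14, adjusted p = 0.0135), and its ranges of 112 to 176 and 84.2 to 128 overlapped. *Dll1*, the Delta ligand of newborn neurons, had medians of 164 and 128 and fell by 0.48 (standard error 0.19, adjusted p = 0.0405). This was the least firm of the calls, since the adjusted p rose to between 0.0507 and 0.102 when mutants B, 1 or 6 or controls D, F, 3, 4 or 5 were left out.

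All 3 target genes were lower at E14.5. *Hes5*, an effector of Notch in radial glia, ranged from 2052 to 3099 at E11.5 (median 2493) and from 947 to 1367 at E14.5 (median 1143), a 2.19-fold fall with no overlap (log2 fold change -1.13, standard error 0.11, adjusted p = 5.07e-07). *Hes1* had medians of 353 and 187 and fell 2.03-fold, from a range of 264 to 452 to a range of 122 to 212 (standard error 0.15 on the log2 scale, adjusted p = 2.63e-05). *Hey1* had medians of 170 and 110 and fell by 0.59 (standard error 0.12, adjusted p = 0.000695), and its ranges of 139 to 218 and 94.9 to 148 overlapped. *Hes6* had a median of 947 at E11.5 and 1016 at E14.5 (log2 fold change 0.031, standard error 0.10, adjusted p = 0.814). Its ranges of 846 to 1217 and 811 to 1143 covered nearly the same span.

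In bulk tissue, fewer cells of a type and less RNA per cell cannot be told apart. Across the same step the summed normalized read count of 7 apical progenitor markers fell from 12484 to 15414 at E11.5 to between 8364 and 10392 at E14.5, where 5 of the 7 were lower and 2 higher. The 8 markers of postmitotic neurons all rose, and their sum went from between 8819 and 13207 to between 29955 and 42242. Intermediate progenitor markers went from a sum of 2671 to 3725 to one of 5624 to 6695, with 3 of 5 higher and none lower. Mural cells of vessels, in which *Notch3* is also known to act, had a marker sum of 134 to 207 at E11.5 and 330 to 459 at E14.5. Markers of the meninges and mesenchyme went from a sum of 1838 to 7342 to one of 1434 to 2442 (4 of 5 lower, 1 higher), and those of the endothelium from 1066 to 1474 to between 969 and 1131 (4 of 8 lower, 1 higher). The E11.5 and E14.5 embryos carry different prefixes in their labels, and what the prefix stands for cannot be told apart from age. The part of any of these in the fall of the members was not tested.

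**Figure D2:**
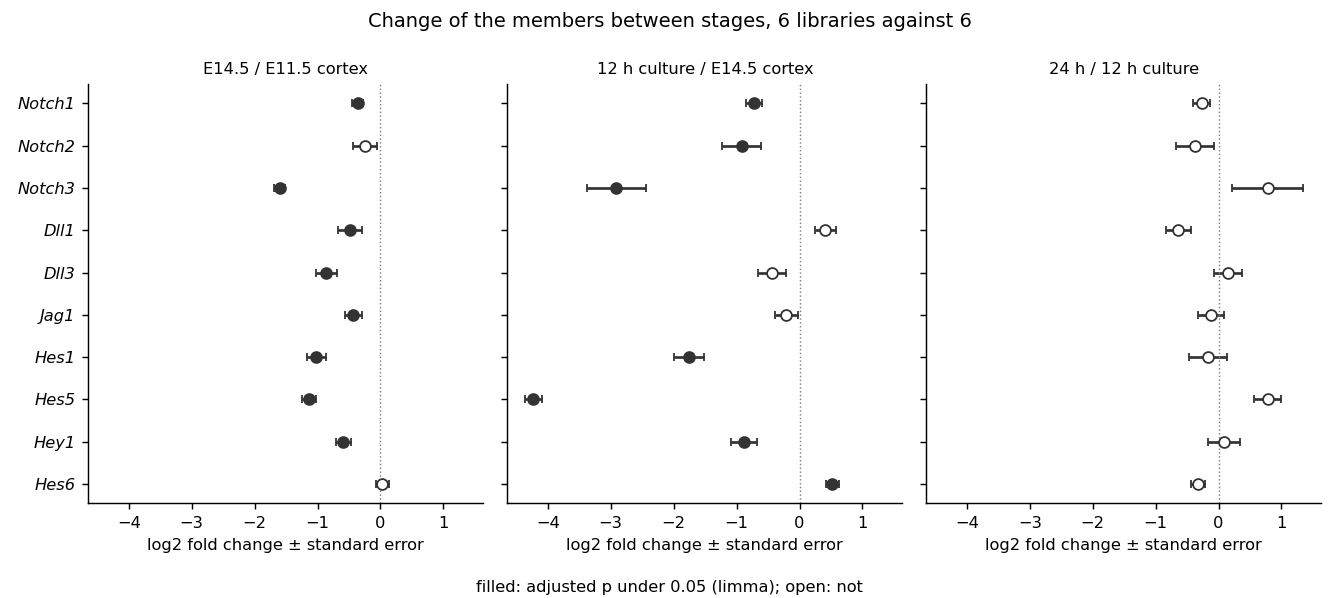
Log2 fold change of each member between consecutive stages (dots, with bars of 1 standard error; 6 libraries against 6, both genotypes), filled where the adjusted p is under 0.05. *Hes5* and *Notch3* fall in both of the first panels, down to -4.23 and -2.91 in culture, *Hes6* is the only filled dot above 0, at 0.52 after 12 hours of culture, and no dot is filled between 12 and 24 hours.

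After 12 hours in culture the receptors and targets were lower than in E14.5 cortex, and *Hes6* was higher. Of the 10 members 6 were lower and 1 was higher than in E14.5 cortex, where 16.1% of all genes tested were lower and 14.1% higher, and the median of the members was -0.80 beside -0.063 for all genes. All cultures lay below all E14.5 cortices for 5 members (7.76% of all genes) and above them for 1 (6.66%). Without mutant 6's cortex 6 members passed the test. Of the 8 members that fell between E11.5 and E14.5, 5 also fell in culture, namely *Notch1*, *Notch3*, *Hes1*, *Hes5* and *Hey1*, and these comparisons share the E14.5 cortices.

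*Hes5* ranged from 947 to 1367 in E14.5 cortex and from 42.5 to 71.2 at 12 hours (median 62.2), an 18.7-fold fall (log2 fold change -4.23, standard error 0.13, adjusted p = 2.46e-12). Each of the 6 embryos lost about the same, with changes of -3.96 to -4.57 log2 units and a mean of -4.21 for mutants and -4.24 for controls. *Hes1* ranged from 122 to 212 in cortex and from 29.9 to 88.7 at 12 hours (median 56.8), a 3.39-fold fall without overlap (log2 fold change -1.76, standard error 0.24, adjusted p = 6.77e-05). It fell in 6 of 6 embryos, with changes of -1.17 to -2.78. *Hey1*, which serves as a target in progenitors and in vessels alike, ranged from 41.8 to 91.4 at 12 hours (median 58.4), below each cortex (log2 fold change -0.88, standard error 0.21, adjusted p = 0.00472).

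Of the receptors, *Notch3* dropped to between 3.15 and 37.6 at 12 hours (median 17.3), a 7.52-fold fall (log2 fold change -2.91, standard error 0.47, adjusted p = 0.000244). These values rest on 2 to 32 reads per library, so that its level in single cultures is imprecise. *Notch1* ranged from 349 to 574 (median 491), below every E14.5 cortex, and fell 1.65-fold (standard error 0.13 on the log2 scale, adjusted p = 0.000512). *Notch2* ranged from 29.9 to 120 (median 66.9), overlapped with the cortices, and fell by 0.92 (standard error 0.31, adjusted p = 0.0344). It rose in 1 of the 6 embryos, mutant 2, and passed the threshold no longer with edgeR (adjusted p = 0.0518), with quantile normalization (0.0524), with a term for the *Gm42418* share (0.149), or when any of 7 single libraries was left out (cortices of mutant 6 and controls 3, 4 and 5, and cultures of mutant 1 and controls 3 and 4; up to 0.0826).

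No ligand passed the test at 12 hours. *Dll1* ranged from 112 to 236 (median 171) and lay above its own cortex in 6 of 6 embryos, by 0.13 to 0.88 log2 units (log2 fold change 0.41, standard error 0.17, adjusted p = 0.0836, and 0.0454 with quantile normalization). *Dll3* ranged from 60.4 to 119 (median 77.7; log2 fold change -0.44, adjusted p = 0.148, and 0.047 without the culture of mutant 6). *Jag1* ranged from 61.5 to 128 (median 93.8; log2 fold change -0.21, adjusted p = 0.388). *Hes6* ranged from 1229 to 1801 (median 1412), above every E14.5 cortex, and rose 1.43-fold (log2 fold change 0.52, standard error 0.10, adjusted p = 0.000935). It was higher in culture in 6 of 6 embryos, by 0.27 to 0.80.

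*Hes5* and *Hes6* moved apart, and their ratio within a library, which does not depend on the size factor, separated the 4 stages. The ratio of the normalized read count of *Hes5* to that of *Hes6* had a median of 2.51 at E11.5 and 1.12 at E14.5. It was 0.044 at 12 hours and 0.0945 at 24 hours, and the ranges of the 4 stages did not overlap (2.08 to 3.24, 1.03 to 1.31, 0.0321 to 0.0513 and 0.0658 to 0.129). *Dll1* over *Hes5* went the other way, from a median of 0.112 in E14.5 cortex to 2.73 at 12 hours and 1.06 at 24 hours. *Notch3* over *Notch1* fell from 0.328 at E11.5 to 0.142 at E14.5 and 0.0436 at 12 hours, with ranges of 0.00662 to 0.0654 and 0.0185 to 0.111 at 12 and 24 hours that overlapped.

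**Figure D3:**
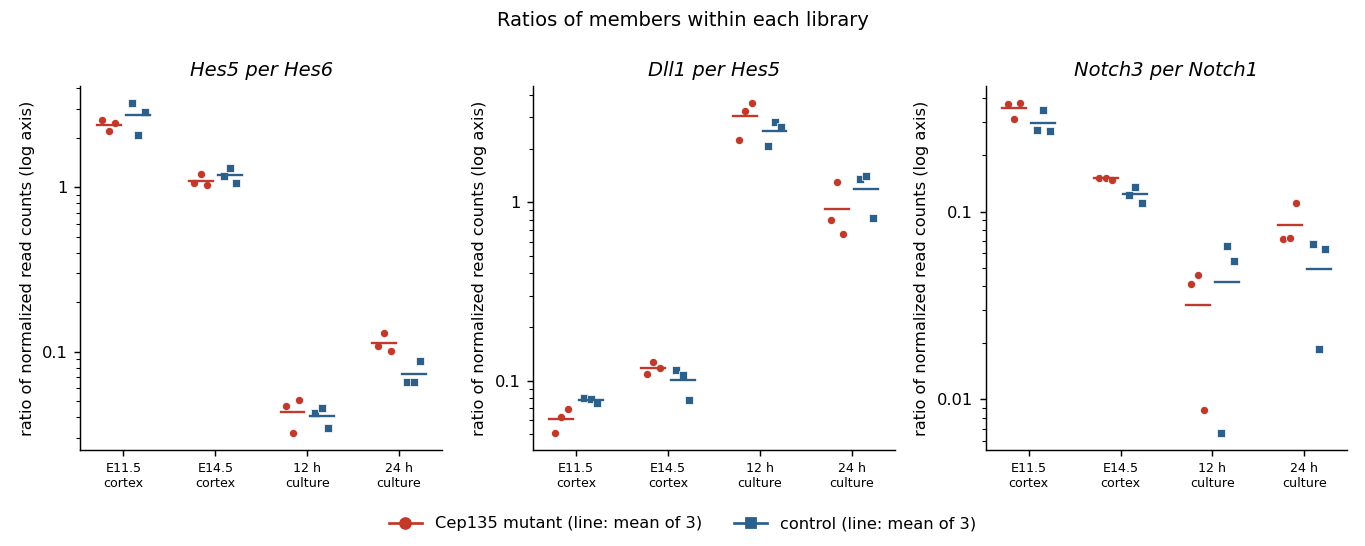
Ratio of the normalized read counts of 2 members within each library (log axis), for *Hes5* per *Hes6*, *Dll1* per *Hes5* and *Notch3* per *Notch1*, by stage. Circles are mutants, squares are controls, and the line is the mean of 3. *Hes5* per *Hes6* drops from about 1 in E14.5 cortex to between 0.0321 and 0.0513 at 12 hours in both genotypes.

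The markers of cell types in the libraries changed with culture as well. The sum of 8 endothelial markers was 969 to 1131 in E14.5 cortex and 27.3 to 94.7 at 12 hours, with all 8 lower. Mural cell markers went from 330 to 459 to between 7.8 and 24.2, meningeal and mesenchymal markers from 1434 to 2442 to between 118 and 256, and microglial markers from 379 to 892 to between 6.31 and 40.9. Erythroid markers rose, with 5 of 6 higher and a sum of 16262 to 20569 in cortex against 33447 to 69308 in culture. Apical progenitor markers were present, with a sum of 8364 to 10392 in cortex and 8305 to 11596 at 12 hours. In that list 4 of 7 genes were lower and 1 was higher, with a median log2 fold change of -0.88, so its sum and its median differ in direction. Intermediate progenitor markers fell from a sum of 5624 to 6695 to 3991 to 5252 (2 of 5 lower), and markers of postmitotic neurons kept a sum of 28373 to 45425 (1 of 8 lower). Dissociation, medium and time were changed together, so they cannot be told apart. The part of these marker changes in the fall of *Notch3*, *Hes1*, *Hes5* and *Hey1* was not tested.

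**Figure D4:**
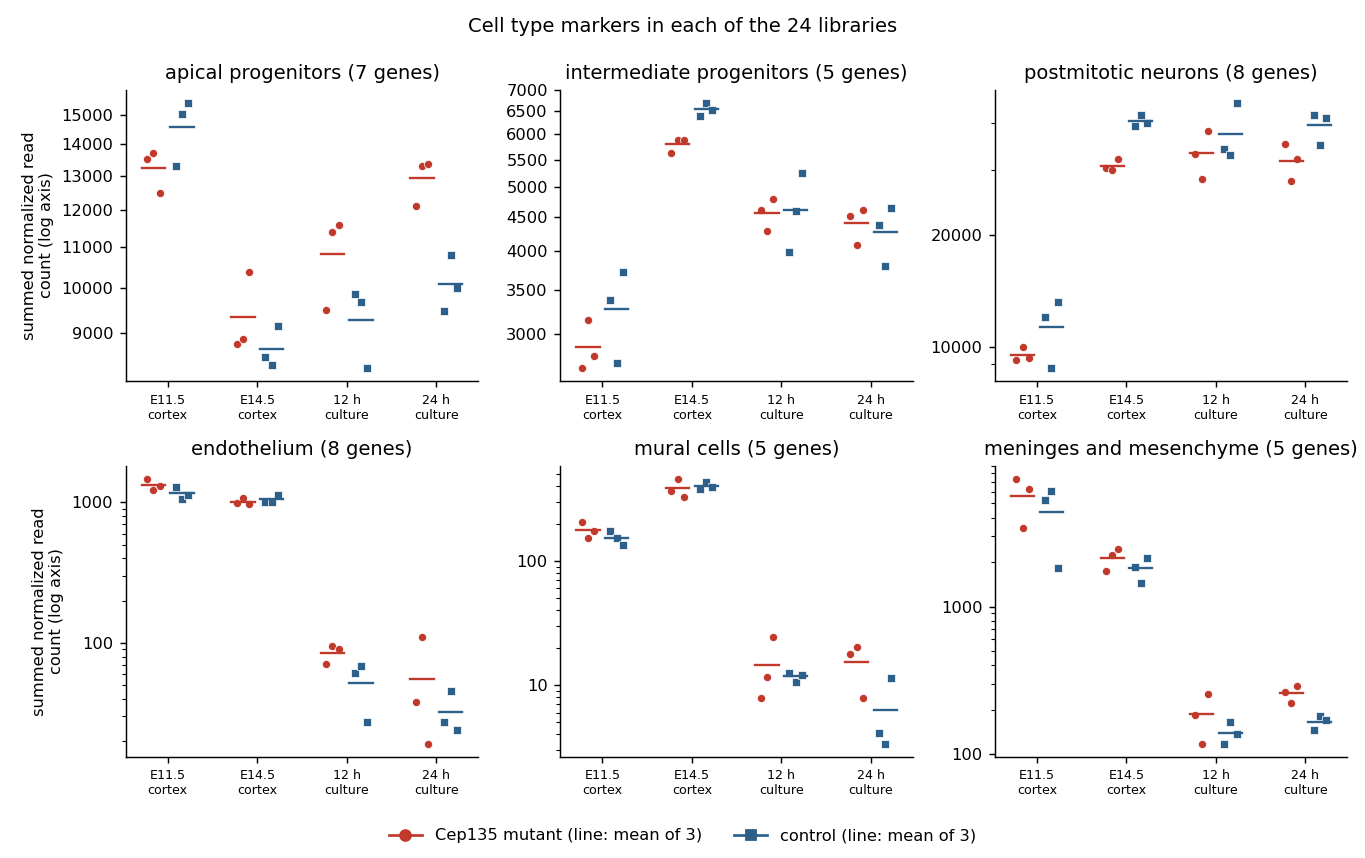
Summed normalized read count of the markers of 6 cell types in each library (log axis) by stage. Circles are mutants, squares are controls, and the line is the mean of 3. Endothelial, mural and meningeal markers drop on culture, to 19.2 to 110, 3.37 to 24.2 and 118 to 290. The sum of apical progenitor markers stays at 8305 or above, while of its 7 genes 4 were lower and 1 higher at 12 hours than in E14.5 cortex.

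Between 12 and 24 hours of culture no member passed the test (0 of 10, with 3 at an unadjusted p under 0.05), where 0.292% of all genes did and 9.64% had an unadjusted p under 0.05. *Hes5* was the nearest to it. It ranged from 42.5 to 71.2 at 12 hours and from 58.7 to 142 at 24 hours (median 110), and rose in 5 of 6 embryos, with control 3 at -0.025 (log2 fold change 0.78, standard error 0.21, adjusted p = 0.146). With DESeq2 on whole reads (adjusted p = 0.0194) and with all 24 libraries in one fit (0.00285) *Hes5* alone passed the threshold. *Dll1* fell back in 6 of 6 embryos, to between 79.2 and 185 (log2 fold change -0.64, standard error 0.20, adjusted p = 0.263), and *Hes6* fell in 5 of 6, to between 892 and 1377 (log2 fold change -0.33, standard error 0.11, adjusted p = 0.294). *Hes1* was 16.9 to 93.4 at 24 hours and *Notch3* 6.74 to 46.3, both still below every E14.5 cortex. The change of *Notch3* from 12 to 24 hours ran from -2.32 to 3.11 log2 units between embryos, and 24-hour libraries held as few as 4 of its reads.

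The study asked how loss of *Cep135* changes the cortex and its progenitors, and the mutants were compared with controls at each stage. At E11.5, at E14.5, and after 12 and 24 hours of culture (3 libraries against 3), 0 of 10 members passed the test in limma, nor did any when the 12 cortices were fitted together with a term for age. In the same order, of all genes tested 0.0149%, 0.0736%, 0%, 0.271% and 0.139% passed. The members with an unadjusted p under 0.05 were 2, 1, 0, 3 and 1 of 10, where 7.39%, 9.1%, 4.85%, 10.6% and 8.71% of all genes had one. With edgeR and with DESeq2 on whole reads, which could be run where no E11.5 library enters, no member passed either.

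**Figure D5:**
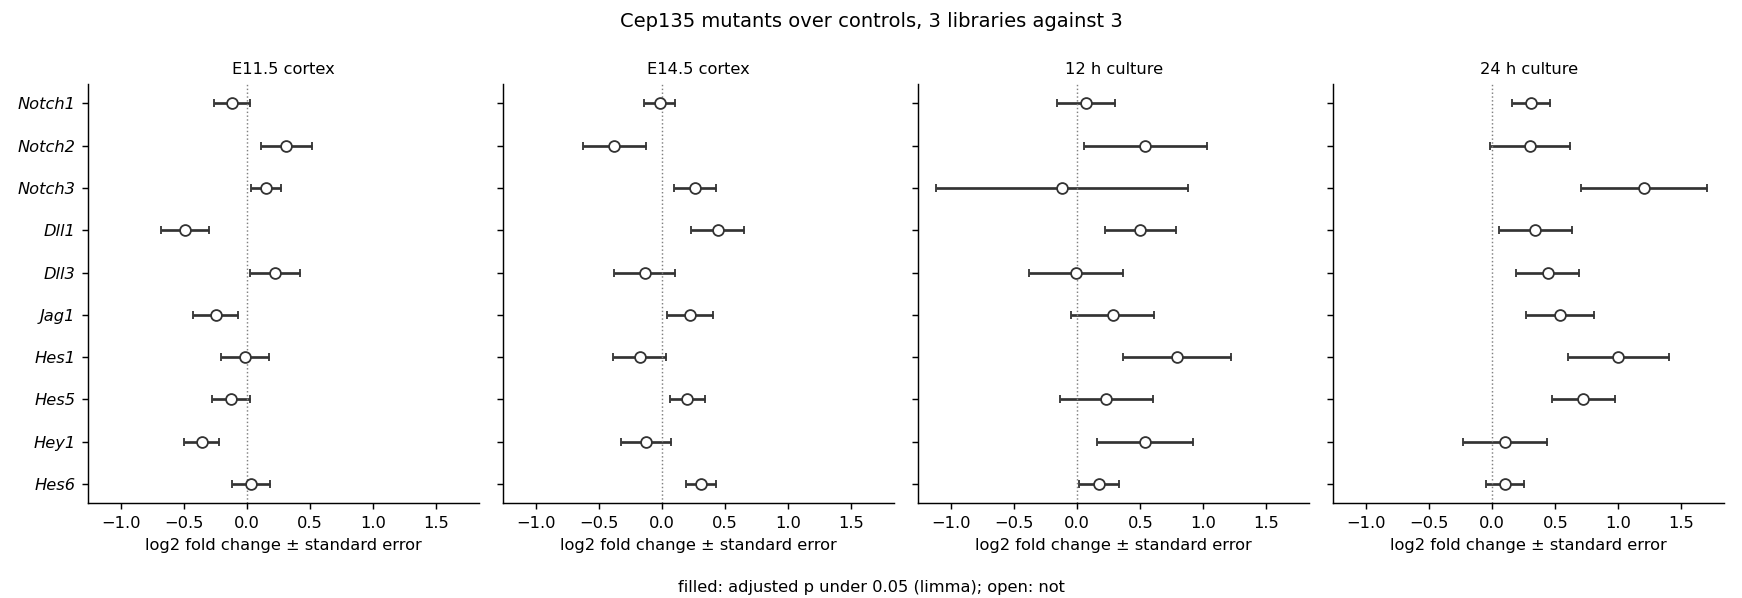
Log2 fold change of *Cep135* mutants over controls for each member in E11.5 cortex, E14.5 cortex, 12-hour and 24-hour culture (dots, with bars of 1 standard error; 3 libraries against 3). All dots are open, since no adjusted p is under 0.05, and at 24 hours all 10 lie above 0, between 0.10 and 1.20.

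At E11.5 the lowest p belonged to *Dll1*. Its values were 118, 167 and 148 for A, B and C, against 220, 161 and 232 for the controls D, E and F (log2 fold change -0.49, standard error 0.19, adjusted p = 0.627). The groups overlapped through control E. *Hey1* stood at 163, 139 and 149 in A, B and C, against 177, 186 and 218, so that each mutant lay below each control (log2 fold change -0.36, standard error 0.14, adjusted p = 0.63). It was the 1 member of 10 whose groups did not overlap, as was the case for 13.3% of all genes. *Hes5* ran from 2142 to 2661 in mutants, within the 2052 to 3099 of controls (log2 fold change -0.13, standard error 0.15). Summed markers of the ventral telencephalon were 937 to 1135 for mutants and 1310 to 1567 for controls, without overlap. Those of the choroid plexus and hem, 2420 to 2658 and 1836 to 2413, did not overlap either. No gene tested in these 2 lists passed, and their part in the levels of the members was not tested.

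At E14.5 the groups did not overlap for *Hes6* and *Notch3*, 2 of 10 members, beside 13.7% of all genes. *Hes6* was 1133, 1143 and 1059 for mutants 1, 2 and 6, against 811, 915 and 974 for controls 3, 4 and 5 (log2 fold change 0.31, standard error 0.12, adjusted p = 0.512). *Notch3* was 113, 114 and 119 against 96.5, 105 and 87.2 (log2 fold change 0.26, standard error 0.17, adjusted p = 0.643). *Dll1* was 130, 173 and 128 against 109, 128 and 81.1 (log2 fold change 0.44, standard error 0.21, adjusted p = 0.552), with mutants on the higher side here and on the lower side at E11.5. Without mutant 6's cortex 0 of 10 members passed. The interaction of genotype with age for *Dll1* was 0.94 (standard error 0.29), with an unadjusted p of 0.0061 in limma and an adjusted p of 0.62. The summed markers of postmitotic neurons were 29955 to 32084 in these mutants and 39456 to 42242 for controls, and those of intermediate progenitors 5624 to 5888 and 6393 to 6695, neither of which overlapped. Microglial markers summed to 724 to 892 for mutants against 379 to 443 for controls, with 5 of 5 higher on average and 1 past the test.

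At 12 hours the groups overlapped for all 10 members, while 11% of all genes had groups apart. *Hes1*, at 53.6, 64.2 and 88.7 for mutants 1, 2 and 6 against 29.9, 31.7 and 60 for controls 3, 4 and 5, had the lowest p (log2 fold change 0.79, standard error 0.43, adjusted p = 0.913). Its fall from cortex to culture averaged -1.27 for mutants (-1.17 to -1.46) and -2.24 for controls (-1.36 to -2.78), and the genotypes overlapped. The 12-hour libraries of controls 3 and 4 held 19 and 27 reads of *Hes1*, and the others 55 to 99. The interaction of genotype with culture was 0.97 (standard error 0.44), with an unadjusted p of 0.0425 in limma and an adjusted p of 0.793. Over the 3 interactions tested, 0 of 10 members had an adjusted p under 0.05, and 1, 1 and 0 had an unadjusted p under 0.05 for age, culture and culture time, where 7.84%, 5.32% and 2.38% of all genes had one and 0% passed after adjustment. Marker sums at 12 hours were apart for choroid plexus and hem, at 5095 to 16380 for mutants and 2379 to 4486 for controls. Those of liver markers, a list that shares *Ttr* with the first, were 5257 to 15854 and 1800 to 4762. Endothelial sums, 71.2 to 94.7 and 27.3 to 68.1, and microglial sums, 6.31 to 14.6 and 18.8 to 40.9, were apart at low levels. No gene tested in these lists passed, and their part in the levels of the members was not tested.

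At 24 hours all 10 members had a mean above that of the controls, with a median log2 fold change of 0.39 beside -0.012 for all genes. In 4 of 10 each mutant lay above each control, where this held for 7.15% of all genes, and none of the 4 passed the test. *Hes5* was 117, 142 and 139 for mutants 1, 2 and 6, against 58.7, 84.3 and 103 for controls 3, 4 and 5 (log2 fold change 0.72, standard error 0.25, adjusted p = 0.296). *Hes1* was 48.7, 58.7 and 93.4 against 39.6, 16.9 and 47.5 (log2 fold change 1.0, standard error 0.40, adjusted p = 0.387), with the lowest mutant just over the highest control. *Notch3* was 30.8, 32.4 and 46.3 against 20.5, 6.74 and 23.8 (log2 fold change 1.20, standard error 0.50, adjusted p = 0.398), on 32 to 53 reads per mutant and 4 to 19 reads per control. *Notch1* was 432, 445 and 418 against 306, 364 and 376 (log2 fold change 0.31, standard error 0.15, adjusted p = 0.475).

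Mutant and control libraries at 24 hours also differed in the markers. The sum of the apical progenitor markers was 12125, 13298 and 13363 for mutants against 9476, 10802 and 10000 for controls, with 6 of 7 genes higher on average and none past the test. Markers of postmitotic neurons summed to 28055 to 35148 for mutants and 34986 to 42180 for controls. All 8 were lower on average in mutants, with 1 past the test. Liver markers summed to 5132 to 16478 and 769 to 3510. All 5 tested were higher on average in mutants, and 3 of them passed the test. *Ttr*, which the choroid plexus also makes, is among the 7 in that list. *Afp*, *Serpina1e* and *Fgb* were at 0 in all 24-hour controls, so any of them tested passed the filter through the mutants alone. In E14.5 cortex of the same embryos 0 of the 5 tested were higher on average in mutants (median log2 fold change -3.87). There *Alb*, *Serpina1e* and *Fgb* were at 0 in all mutants and *Afp* in all controls. Markers of the choroid plexus and hem, *Ttr* among them, summed to 5622 to 17163 for mutants against 1914 to 4540 for controls (1 of 5 past the test higher, 1 lower), and those of the meninges and mesenchyme to 224 to 290 against 146 to 182, with 5 of 5 higher on average and none past the test. Depth, that share and these markers move with genotype here, and their part in the levels of *Hes5*, *Hes1*, *Notch3* and *Notch1* was not tested.

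The other genes of the pathway were followed in 7 lists of 54 genes in all. From E11.5 to E14.5, 10 of the 51 tested were higher and 17 lower, beside 23.8% and 29.3% of all genes, with a median log2 fold change of -0.17 beside -0.077. Named by the smallest p among those that rose were *Dtx1* (2.69), an E3 ubiquitin ligase induced by Notch, *Dner* (2.30), a neuronal Delta-like protein, *Neurl1b* (2.24), a ligase that helps ligands to be taken up, and *Aph1b* (0.87), a part of the gamma-secretase that cuts the receptor. *Dner* went from between 219 and 381 to between 1141 and 1599. Lower were *Dlk1* (-2.50), an atypical ligand, *Id3* (-2.35), which binds and blocks proneural factors, *Adam17* (-0.93), a protease that can cut receptors, and *Tle1* (-0.84), a corepressor of Hes proteins. The target *Nrarp*, a feedback inhibitor induced by Notch and chosen after its values were seen, fell by 0.99 (standard error 0.21, adjusted p = 0.00088), from between 145 and 316 to between 73.4 and 173.

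In culture at 12 hours 5 of the 51 tested were higher and 16 lower, beside 14.1% and 16.1% of all genes, with a median of -0.22 beside -0.063. Of the 6 proneural and related factors 5 were lower. *Heyl*, a target of the Hey family, had 13.1 to 27.1 in E14.5 cortex and was at 0 in all 6 of the 12-hour libraries, so it passed the filter through the cortices alone. *Nrarp* fell to between 25.2 and 79.7 (log2 fold change -1.41, standard error 0.31, adjusted p = 0.00263). *Id4*, which pairs with Hes proteins, fell 2.24-fold from between 1907 and 2707 to between 823 and 1175, and *Id3* 4.28-fold. *Neurl1a* was 2.08-fold lower, and *Tle4*, a corepressor, was 1.58-fold higher. *Rbpj* itself, also chosen after its values were seen, was at 899 to 1042 in E14.5 cortex and 822 to 1225 at 12 hours (log2 fold change 0.083, standard error 0.10, adjusted p = 0.557). Of the 12 genes of the nuclear complex and its corepressors 4 were higher and none lower.

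From 12 to 24 hours only *Neurog2*, the proneural factor of cortical neurons, passed the test among the 49 of these genes tested (0 higher, 1 lower), going from between 203 and 452 to between 130 and 213 (log2 fold change -0.77, standard error 0.15, adjusted p = 0.034). Between genotypes none passed at any stage (0 of 51 at E11.5, 0 of 52 at E14.5 and 0 of 49 in each culture). Their median log2 fold change at 24 hours was 0.03, beside 0.39 for the members.

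Across the means of the 8 groups, *Hes5* spanned 5.54 log2 units, more than 99% of the genes that averaged 10 or more over the 24 libraries. *Notch3* spanned 4.64 and *Hes1* 3.45, more than 97.3% and 93.5% of genes, and *Hes6* spanned 0.76, more than 28.6%. The members did not share one profile. After centering each gene on its mean, the root mean square difference between members over the 8 group means was smallest for *Notch1* with *Notch2* and *Notch1* with *Hey1* (0.21 log2 units each) and largest for *Hes5* with *Hes6* (2.46). *Notch3* was nearest to *Hes5* (0.59) and *Hes1* to *Notch2* (0.66). Among the 13668 other genes, those nearest to *Hes5* were *Heyl* (0.26), *Robo4* (0.29) and *Vwf* (0.30), where the median gene stood at 2.25. *Heyl* was at 0 in all 6 of the 12-hour libraries and had a median of 0 at 24 hours. Its level in culture is thus set mostly by the 1 added before taking logs. Those nearest to *Notch3* were *Cped1*, *Loxl3* and *Tex15* (0.29 to 0.31), those nearest to *Hes1* were *Fkbp9*, *Ppic* and *Dnah7b* (0.15 to 0.22), and those nearest to *Hes6* were *Ddx54*, *C230085N15Rik* and *Ascc3* (0.063 to 0.083). These likenesses describe 8 means that share libraries, embryos and the change of cell type markers on culture.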

How the data were processed

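RNA was measured in 24 libraries. Per the labels and the methods, the authors prepared oligo(dT)-primed 3′ libraries, trimmed adapters and polyA tails, mapped the reads on GRCm38 by TopHat2 (2.0.10), counted them by strand with HTSeq (0.6.1) on GENCODE genes, and deposited 1 table of signal, in which the counts of each library are divided by 1 size factor. Replicates were not pooled. All 484666 values above 0 were whole multiples of 1 read within a tolerance of 0.01 reads, except that E11.5 control D, where 1 read is worth nearly 1, cannot be told from rounding, so count tests left out comparisons with E11.5 libraries.

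Genes averaging 10 or more over the libraries in question were tested two-sided with limma (3.58.1, R 4.3.3; intensity trend) on log2 of the value plus 1, with Benjamini-Hochberg adjustment over all genes tested and a threshold of 0.05. The fold changes are on that scale, which understates changes of low genes. Alternatives were a pseudocount of 0.1 or 5, a filter at a mean of 50 or none, TMM factors, quantile normalization, edgeR (4.0.16) and DESeq2 (1.42.0) on whole reads, 1 fit of all 24 libraries, embryo sex (read from *Xist* and Y-linked transcripts), label prefix or embryo as a block, and leaving out each library. A term for the *Gm42418* share was chosen after seeing the data. The steps were also run on simulated counts with a single spread for all genes, taken from better covered genes of the E14.5 cortices. That setting does not stand for genes with few reads or for the cultures. Cortex and cultures of one number come from the same embryo by their labels. Deviations from group means correlated at -0.114 to 0.235 over 18 such pairs (median 0.137). Over 36 pairs of different embryos of 1 genotype they correlated at -0.288 to 0.213 (median -0.0638), so the ranges overlap widely.

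The members, the gene lists and the tests were chosen with earlier results of these data known. All members are named, with up to 4 higher and 4 lower other pathway genes per stage comparison that had the smallest p past the threshold and, within each genotype, groups that do not overlap. The depths, 4732781 to 11645213 reads, limit the precision of genes with few reads. The positions printed are those of GENCODE vM21, and the reads were counted on release vM20.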

Additional observations from a re-analysis of the deposited data

How the results depend on the processing

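The count of members past the threshold was 0 under each alternative in each comparison of genotypes and each interaction. It was 7 to 8 for E14.5 against E11.5 cortex and 6 to 8 for 12-hour culture against cortex when single libraries were left out, and 0 for 24 against 12 hours, where all 24 libraries in one fit and DESeq2 gave 1 (*Hes5*). With the embryo as a block, which uses the pairing of cortex and cultures, 7 members passed for 12-hour culture against cortex and 0 for 24 against 12 hours, and the block changed no call of a member.

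Directions that changed belonged to log2 fold changes that did not pass the test. Mutants over controls at E11.5, *Dll3* was -0.168 with the *Gm42418* share, and leaving out 1 library gave -0.0137 to 0.423 for *Dll3*, -0.194 to 0.192 for *Hes1* and -0.117 to 0.124 for *Hes6*. At E14.5 a term for sex gave 0.051 for *Notch1*, 0.245 for *Notch2*, 0.129 for *Hes1* and 0.0551 for *Hey1*, and leaving out 1 library gave -0.357 to 0.0799 for *Dll3*, -0.331 to 0.0363 for *Hes1* and -0.257 to 0.0391 for *Hey1*. At 12 hours *Dll3* was 0.00359 with TMM factors, 0.00341 with DESeq2, 0.522 with sex and 0.0114 with the *Gm42418* share, *Notch3* was 0.181 with quantile normalization, *Hes6* was -0.0798 with sex and *Notch1* was -0.104 with the *Gm42418* share. Without 1 library they were -0.275 to 0.238 for *Dll3*, -1.04 to 0.573 for *Notch3* and -0.124 to 0.239 for *Notch1*. At 24 hours *Hey1* was -0.074 with sex and *Dll1* -0.0419 with the *Gm42418* share, and without 1 library *Hey1* was -0.235 to 0.341 and *Hes6* -0.0506 to 0.209. Between stages and without 1 library, *Hes6* was -0.0242 to 0.0826 for E14.5 against E11.5, and for 24 against 12 hours *Hes1* was -0.295 to 0.0399 and *Hey1* -0.0324 to 0.223. The cause of these changes was not tested.

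The number of all genes past the threshold moved more, from 36 to between 0 (*Gm42418* share) and 182 (DESeq2) for genotype at 24 hours, from 10 to between 1 and 74 at E14.5, from 2 to between 0 and 17 at E11.5, from 0 to as many as 182 at 12 hours with sex, from 19 to between 6 and 35 in the 12 cortices, from 4107 to between 2025 and 5209 for 12-hour culture against cortex, and from 39 to between 14 and 160 for 24 against 12 hours.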
